A study of Mus musculus with 100 samples.

Results

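The shMed29 knockdown was examined in 2 RNA-seq libraries of mouse V6.5 embryonic stem (ES) cells, out of 100 libraries in the series, chosen because their titles name the hairpin shMed29. They were compared with 2 libraries titled shControl for Gcn5, Usp22 and most Mediator subunits, called control_B here, in which the cells carried a control plasmid in place of a hairpin against a gene. The other 22 Mediator knockdowns that share control_B, and among them the 3 of the neighbouring subunits, shMed27, shMed28 and shMed30 (6 libraries), served as further points of reference. Per the labels' protocols, every group had feeder cells removed before plating, was transfected with 1.8 µg of plasmid, received puromycin from 24 h after transfection and was collected after 72 h of selection. All groups are therefore short-term, puromycin-selected cultures of the same hybrid line. The labels name no second hairpin against Med29, and nothing in them tells whether replicate 1 and replicate 2 were grown apart, so the p-values describe the variation between sequenced libraries, which may be technical.

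Mediator is a large coactivator complex that connects DNA-bound transcription factors with RNA polymerase II. It is described as head, middle and tail modules with a separable kinase module, and MED29 (the counterpart of Drosophila Intersex) lies in the upper part of the tail beside MED27, MED28 and MED30, near the head. In ES cells Mediator is known for its role at genes of the pluripotency network, among them those of Pou5f1, Sox2 and Nanog.

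Levels are given as RPKM, reads scaled to transcript length in kilobases and to library size, as the authors deposited them. The RPKM denominators recovered from the values were 20.94 and 29.76 M reads in the shMed29 libraries and 24.01 and 29.85 M reads in the control_B libraries, so 1 read on a kilobase of transcript equalled 0.034 to 0.048 RPKM. Each of these 4 libraries was nearer to its own partner than to any other of the 52 libraries that share control_B. The summed level of 7 ES-cell markers was 1037 to 1120 RPKM in the 4 libraries. The 8 markers of fibroblast feeder cells summed to 1.55 and 1.29 RPKM in the shMed29 libraries, with 3 of 8 at 0 in each, and to 1.99 and 1.46 RPKM in control_B. Changes are differences of log2(RPKM + 1) with their standard errors from a limma fit over the 52 libraries, so for genes near or under 1 RPKM they are smaller than the ratio of the levels. A gene is called where the Benjamini-Hochberg adjusted p, over the 12505 genes tested, was under 0.05. RPKM values are shares of a library, and since no spike-in was measured a change common to all genes would not be seen.

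The targeted gene came first. Med29 stood at 1.70 and 1.79 RPKM in the shMed29 libraries and at 5.28 and 5.59 RPKM in control_B. Both knockdown libraries were thus at 31.3% and 32.9% of the control mean, a log2 change of -1.23 ± 0.08 (limma adjusted p = 1.4e-12). The 50 other libraries that share control_B held 4.69 to 7.10 RPKM (median 5.59), so the knockdown libraries lay below all of them, and across the 98 other libraries of the series the lowest Med29 value was 2.93 RPKM. Med29 lies at chr7:28385247-28392690 (GRCm38.p6), between Zfp36, which encodes an RNA-binding protein that promotes mRNA decay, and Paf1, a subunit of the PAF elongation complex. Between the starts of Med29 and Paf1 lie 305 bases, and Paf1 stood at 28.5 and 32.1 RPKM in shMed29 against 31.4 and 29.8 in control_B. Its groups overlapped, and neither Paf1 (log2 change -0.01 ± 0.04) nor Zfp36 (0.16 ± 0.07) was called.

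**Figure D1:**
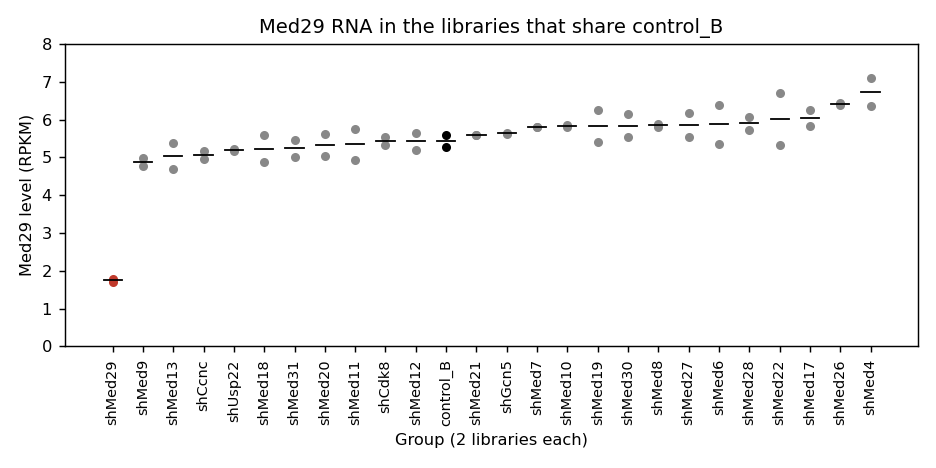
Med29 level (RPKM, y axis from 0) in each library of the 26 groups that share control_B (x axis, ordered by group mean; points are libraries, short bars are group means of 2). The shMed29 libraries, at 1.70 and 1.79 RPKM, lie below the 50 others, whose lowest value is 4.69 RPKM.

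Other Mediator subunits changed little. No head subunit of 7 was called in either direction. In the middle module 1 of 9 rose, Med7 (16.8 and 16.8 RPKM against 14.7 and 13.7, log2 change 0.23 ± 0.05), and in the tail list 3 of 10 fell, of which Med29 was the largest. The other fallen tail genes were the scaffold subunit Med14 (-0.22 ± 0.04; 9.55 and 9.26 RPKM against 11.1 and 11.1) and Med23 (-0.18 ± 0.06). The level of Med14 in shMed29 was the lowest among the 23 Mediator knockdowns that share control_B. The direct neighbours were not called: Med27 changed by -0.11 ± 0.09, Med28 by -0.08 ± 0.07 and Med30 by 0.03 ± 0.08. In the kinase module Med12 (-0.21 ± 0.05) and Cdk8 (-0.18 ± 0.06) fell, while Ccnc (0.21 ± 0.07) and the Cdk8 paralog Cdk19 (0.30 ± 0.07) rose. Among 24 RNA polymerase II subunits and general initiation factors 7 rose and none fell, by at most 0.19 (Polr2g), and under upper-quartile scaling 2 list members were called higher, without each library in turn 0 to 4. In the TFIID list 2 of 14 rose and 1 fell, Taf3 (-0.34 ± 0.06). These counts stand against 9.13% of all tested genes called higher and 7.57% called lower in shMed29. Without shMed29 replicate 1 or control_B replicate 2 the Med12 call was lost, without control_B replicate 2 that of Med7 and without control_B replicate 1 that of Cdk19. The calls of Cdk8, Ccnc and Med23 were each lost without at least 3 of the 4 libraries in turn, and Ccnc and the polymerase genes Polr2a and Polr2b were not called under upper-quartile scaling.

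Many genes moved slightly in shMed29 and few moved far. Against control_B 1142 genes rose and 947 fell, together 16.7% of the 12505 tested, while the median change of all genes was 0.01. Every count of list members called in shMed29 against control_B is to be read beside these shares, 9.13% higher and 7.57% lower. Only 10 genes (0.08%) passed with a change of at least 1 on the log2 scale, 6 of them higher and 4 lower. Upper-quartile scaling turned the balance of directions, with 920 higher and 1152 lower, so that 44.4% of calls were higher in place of 54.7%. When the model was fitted over all 100 libraries of the series, 45 genes were called (30 higher, 15 lower), all of them among the 2089, and no gene list described here had more than 1 called member in a direction. With the 4 libraries alone there were 713 calls, of which 688 were among the 2089.

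The size of the response placed shMed29 among the milder Mediator knockdowns. Counted as called genes with a log2 change of at least 1, shMed29 had 10, as many as shMed11, and 7 of the 25 knockdowns that share control_B had fewer, in a range from 2 in shMed9 and shUsp22 to 560 in shMed10. The other knockdowns of the upper tail had 92 such genes in shMed27 (0.736% of genes), 306 in shMed28 (2.45%) and 293 in shMed30 (2.34%). These comparisons share the same 2 control libraries. The targets differed in how far they were lowered. Med27 stood at 17.0% and 26.5% of the control mean in its knockdown, Med28 at 19.5% and 19.8%, and Med30 at 19.5% and 16.8%, all lower than the 31.3% and 32.9% of Med29. The part of the remaining target level in the size of the response was not tested.

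**Figure D2:**
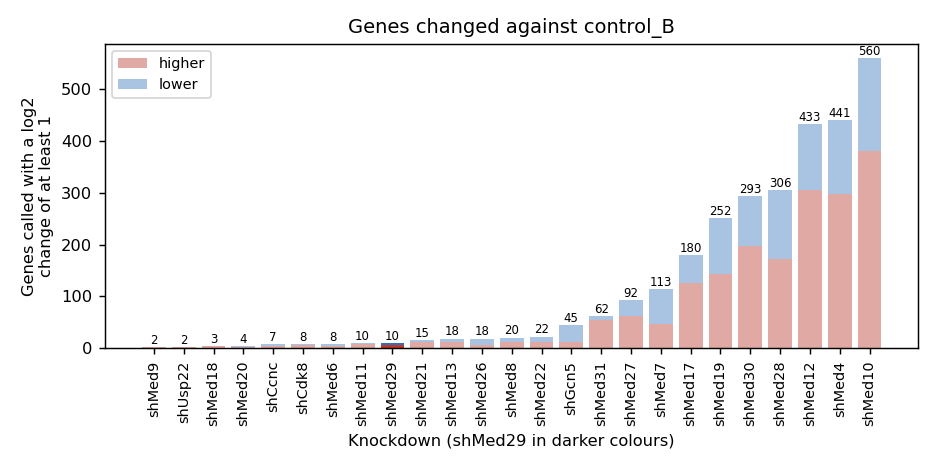
Number of genes called with a log2 change of at least 1 against control_B (y axis from 0) in each of the 25 knockdowns that share that control (x axis); red parts are genes that rose, blue parts genes that fell. shMed29, in darker colours, has 10, while shMed27 has 92, shMed28 has 306 and shMed30 has 293.

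Among the largest rises in shMed29 were those of Slc40a1, Hand1 and H19. The iron exporter gene Slc40a1, which encodes ferroportin, stood at 8.14 and 7.70 RPKM against 2.37 and 3.46 in control_B, a log2 change of 1.20 ± 0.09. Hand1, a transcription factor of trophoblast giant cells and extraembryonic mesoderm, stood at 5.99 and 5.59 RPKM against 1.69 and 2.42 (1.16 ± 0.09). In both genes the knockdown libraries lay above both control libraries, which the choice of the genes required; groups of 2 did not overlap in 56.4% of all genes tested. The maternally expressed imprinted RNA H19 rose from 11.3 and 10.1 to 23.4 and 22.2 RPKM (1.02 ± 0.09). Also among the 15 largest rises, of which 14 are reported, were AU015836, Gpat3 (glycerol-3-phosphate acyltransferase), the calcium-binding S100a6, Ptges (prostaglandin E synthase), Morc4, Dppa3, Serpinb9b, the X-linked homeobox gene Rhox6, the ligand Bmp4, AU018091 and Pla2g7, with changes from 1.09 to 0.76. Dppa3, known from germ cells and naive ES cells, stood at 6.01 and 7.19 RPKM against 3.21 and 3.15 (0.86 ± 0.13).

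The largest fall was in Cdkn1c, an imprinted inhibitor of cyclin-dependent kinases, below the targeted gene itself. Cdkn1c stood at 13.5 and 12.4 RPKM in shMed29 and at 36.0 and 32.4 in control_B, a log2 change of -1.33 ± 0.09 (limma adjusted p = 5.5e-13). Sox1, a marker of early neural cells, fell from 6.88 and 6.60 to 2.39 and 2.34 RPKM (-1.20 ± 0.10). Stra8, which retinoic acid induces in germ cells before meiosis, fell from 5.90 and 6.59 to 2.66 and 2.15 RPKM (-1.09 ± 0.13). The groups of these 3 genes do not overlap, which the choice of the genes required. The other genes of the 15 largest falls were Lefty2 and Lefty1 (secreted inhibitors of Nodal), Mir546, the neuroendocrine genes Insm1, Cpe and Trh, the transcription factors Tcf15 and Gsx1, Alpl (tissue-nonspecific alkaline phosphatase), the de novo DNA methyltransferase Dnmt3a and the intermediate filament gene Prph, with changes from -0.92 to -0.79. Mir546 is a short transcript, and its call was lost without each of the 4 libraries in turn.

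The comparison with the other 22 Mediator knockdowns used other reference libraries but the same 2 shMed29 libraries by which these genes were picked, so its counts are a description and no independent support. Of the 14 reported rises 11 were called higher in shMed29 than in the mean of those 22, where 24.6% of all genes were called higher, and 3 were not called (Gpat3, S100a6 and Serpinb9b). Of the 15 largest falls 10 were called lower, where 20.7% of all genes were, Tcf15 and Dnmt3a were higher in shMed29, and Stra8, Mir546 and Gsx1 were not called. In 5 of the rises and 3 of the falls the control_B mean lay outside the whole range of the 22 knockdown means, on the side away from shMed29. Cdkn1c was such a gene, at 8.93 to 27.1 RPKM (median 18.7) in the 22. There shMed29 was lower than their mean by -0.45 ± 0.06 on the log2 scale, beside -1.33 against control_B. Med29, Mir546 and Prph among the falls lay beyond all 22. With all 100 libraries in the fit, Hand1, AU015836, Ptges and AU018091 of the rises and Cdkn1c, Med29, Stra8 and Cpe of the falls were still called.

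**Figure D3:**
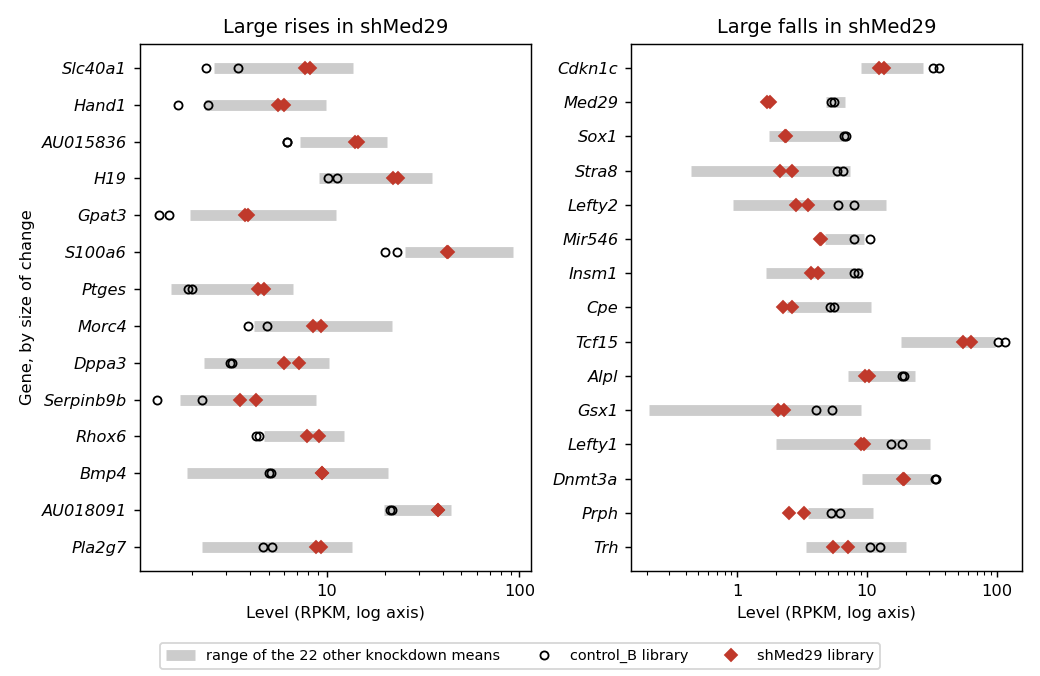
Level (RPKM, log x axis) of 14 of the 15 genes with the largest rise and of the 15 with the largest fall in shMed29; red diamonds are the 2 shMed29 libraries, open circles the 2 control_B libraries and grey bars the range of the means of the 22 other Mediator knockdowns. Cdkn1c is at 13.5 and 12.4 RPKM against 36.0 and 32.4, and both control circles lie right of the grey bar.

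Genes of the trophectoderm, the outer cell layer of the blastocyst, moved upward. Of 11 measured members 8 were called higher and none lower, and the median change was 0.46 beside 0.01 over all genes. Besides Hand1 these were the epithelial keratins Krt7 (0.66 ± 0.08), Krt18 (0.56 ± 0.07) and Krt8 (0.50 ± 0.08) and the transcription factors Tfap2c (0.52), Gata3 (0.46), Tead4 (0.44) and Eomes (0.42). Krt18 stood at 102 and 95.9 RPKM against 66.9 and 66.5, and Krt8 at 66.2 and 61.6 RPKM against 45.6 and 44.4. Both keratins were higher in each knockdown library than in each control library, and groups of 2 did not overlap in 56.4% of all genes tested. Cdx2, the factor most used to mark trophectoderm, was not called, at 1.87 and 1.46 RPKM against 2.35 and 2.01 (-0.26 ± 0.12), and neither were Tfap2a and Krt19. Between 8 and 9 members were called without each library in turn, but in the fit of all 100 libraries Hand1 was the only member called. Against the same control libraries 8, 10 and 9 of the 11 were called higher in shMed27, shMed28 and shMed30 (21.0%, 32.3% and 33.0% of all genes). Beside the mean of the other 22 Mediator knockdowns, 2 members were called higher in shMed29 and 5 lower (24.6% and 20.7% of all genes).

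The keratins were not raised more than in the neighbouring knockdowns. Krt18 averaged 150 RPKM in shMed27, 239 in shMed28 and 281 in shMed30, and shMed29 was lower than the mean of these by -1.11 ± 0.05 on the log2 scale (limma adjusted p = 1.4e-17). Krt7 (-0.76), Krt8 (-1.10) and Gata3 (-0.69) were likewise lower in shMed29. Hand1 and Eomes went the other way, higher than the mean of the 3 by 0.88 ± 0.08 and 0.39. Hand1 averaged 2.59 RPKM in shMed27, 2.88 in shMed28 and 2.61 in shMed30, all under the 5.59 and 5.99 RPKM of shMed29. In the other 22 knockdowns Hand1 ranged from 2.33 to 9.93 RPKM (median 3.12), and 3 of them exceeded shMed29.

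A list of annexin, S100 and galectin genes, which also held Lmna and Cav1, moved upward. Annexins and S100 proteins bind calcium. Of its 12 measured members 8 were called higher and none lower (median change 0.36), although none was called in the fit of all 100 libraries. Besides S100a6 (42.4 and 41.9 RPKM against 19.98 and 23.2, a log2 change of 0.94 ± 0.08), these included Anxa1 (0.72), S100a10 (0.53), S100a11 (0.48) and Anxa3 (0.44). Anxa5, Anxa6, Lmna and Cav1 were not called. Of these 12 members none was higher and 11 were lower in shMed29 than in the mean of shMed27, shMed28 and shMed30, where 29.4% of all genes were higher and 32.2% lower.

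Contractile and actin-cytoskeleton genes had the largest median difference from the neighbouring knockdowns among the 45 gene lists examined. Against control_B 9 of 16 rose and none fell (median change 0.15), led by Acta2, the smooth-muscle actin (0.60 ± 0.10), Csrp1 (0.44 ± 0.04), the skeletal-muscle actin Acta1 (0.39 ± 0.08), the myosin light chain Myl9 (0.37 ± 0.06) and Tagln, the actin-binding transgelin (0.36 ± 0.06). Acta2 stood at 6.03 and 5.15 RPKM in shMed29 and at 3.87 and 2.85 in control_B, while it averaged 52.1 RPKM in shMed27, 16.2 in shMed28 and 27.8 in shMed30. Tagln stood at 45.5 and 43.8 RPKM in shMed29 and at 35.7 and 33.6 in control_B, and it averaged 156, 172 and 177 RPKM in shMed27, shMed28 and shMed30. For both genes the knockdown of Med29 sat just above the control and far under the 3 neighbours. Against the same control libraries 16, 15 and 15 of the 16 members were called higher in shMed27, shMed28 and shMed30, where 21.0%, 32.3% and 33.0% of all genes were called higher. The direct difference was called for all 16 members, lower in shMed29, with a median of -1.29 on the log2 scale. Of all genes 32.2% were called lower there. In the mean of the other 22 Mediator knockdowns, which includes these 3, all 16 were called higher than in shMed29, as were 20.7% of all genes. No member was called against control_B in the fit of all 100 libraries, and 4 were called with the 4 libraries alone.

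Promoters of this list are shown because its genes moved together and serum response factor is known to act at many of them through the CArG box. From the RefSeq table of the GRCm38.p6 build, windows of 250 bases before to 50 bases after the start were searched on both strands for CC, then 6 bases that are each A or T, then GG. The box was found in 6 of the 14 contractile genes with a window (Acta1, Actc1, Cnn2, Myl9, Vcl and Srf) and in 1.57% of all 27025 windows. In the 2 windows printed here, given 5′ to 3′ on the strand of the gene, capitals mark the box. No such run was in the window of Acta2, which says only that these letters are not there.
Acta1 (chr8:123894726-123895025, minus strand): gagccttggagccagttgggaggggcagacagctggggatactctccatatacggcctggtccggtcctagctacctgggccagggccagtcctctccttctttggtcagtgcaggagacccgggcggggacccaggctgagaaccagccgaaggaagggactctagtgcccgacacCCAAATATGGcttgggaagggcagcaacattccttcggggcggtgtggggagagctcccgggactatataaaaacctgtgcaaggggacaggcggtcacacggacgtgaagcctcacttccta
Myl9 (chr2:156775214-156775513, plus strand): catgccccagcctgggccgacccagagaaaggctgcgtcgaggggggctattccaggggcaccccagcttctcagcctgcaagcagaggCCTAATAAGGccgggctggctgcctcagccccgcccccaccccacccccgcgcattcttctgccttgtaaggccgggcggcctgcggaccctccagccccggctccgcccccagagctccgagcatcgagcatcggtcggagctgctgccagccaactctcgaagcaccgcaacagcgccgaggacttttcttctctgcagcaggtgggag

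Metallothioneins, the small cysteine-rich proteins that bind zinc and copper, moved opposite to their neighbours' knockdowns. Mt1 stood at 413 and 419 RPKM in shMed29 and at 274 and 273 in control_B, a log2 change of 0.60 ± 0.04 (limma adjusted p = 1.5e-11). Mt2 stood at 605 and 603 RPKM against 420 and 429 (0.51 ± 0.04). Both libraries exceeded both controls in each gene, where groups of 2 did not overlap in 56.4% of all genes tested. Mt1 averaged 160 RPKM in shMed27, 51.1 in shMed28 and 124 in shMed30, all under the control level, and shMed29 was higher than their mean by 2.04 ± 0.04 on the log2 scale. For Mt2 the averages were 250, 94.6 and 213 RPKM and the difference was 1.81 ± 0.03. Of the 22 other Mediator knockdowns 1 held more Mt1 than shMed29 and 1 held more Mt2. In the whole list of oxidative-stress and metal genes 3 of 12 rose, which were Mt1, Mt2 and Nfe2l2, and 3 fell. Nfe2l2 (0.17) was not called under upper-quartile scaling. Slc30a1, the zinc exporter that shares its metal-responsive regulator with Mt1, was not called (-0.06).

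The Mt1 and Mt2 promoter windows are shown for the metal response elements known from these genes. Capitals mark the core TGCACNC or TGCGCNC on either strand, found 3 times in the Mt1 window and 4 times in the Mt2 window. The core is common, with a match in 25.6% of all windows, and 5 of the 9 list genes with a window had it.
Mt1 (chr8:94178839-94179138, plus strand): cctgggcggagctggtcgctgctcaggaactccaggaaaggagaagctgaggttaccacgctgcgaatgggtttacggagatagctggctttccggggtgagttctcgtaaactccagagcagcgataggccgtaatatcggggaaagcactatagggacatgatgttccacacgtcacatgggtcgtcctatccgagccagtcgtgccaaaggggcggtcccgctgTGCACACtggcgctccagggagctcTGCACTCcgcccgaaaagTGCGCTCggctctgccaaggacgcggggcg
Mt2 (chr8:94172368-94172667, plus strand): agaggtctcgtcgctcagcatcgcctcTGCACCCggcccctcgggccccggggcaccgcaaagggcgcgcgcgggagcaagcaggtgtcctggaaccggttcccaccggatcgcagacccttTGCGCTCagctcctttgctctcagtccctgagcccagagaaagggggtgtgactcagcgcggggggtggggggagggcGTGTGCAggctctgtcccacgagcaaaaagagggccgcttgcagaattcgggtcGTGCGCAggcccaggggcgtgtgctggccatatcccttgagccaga

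**Figure D4:**
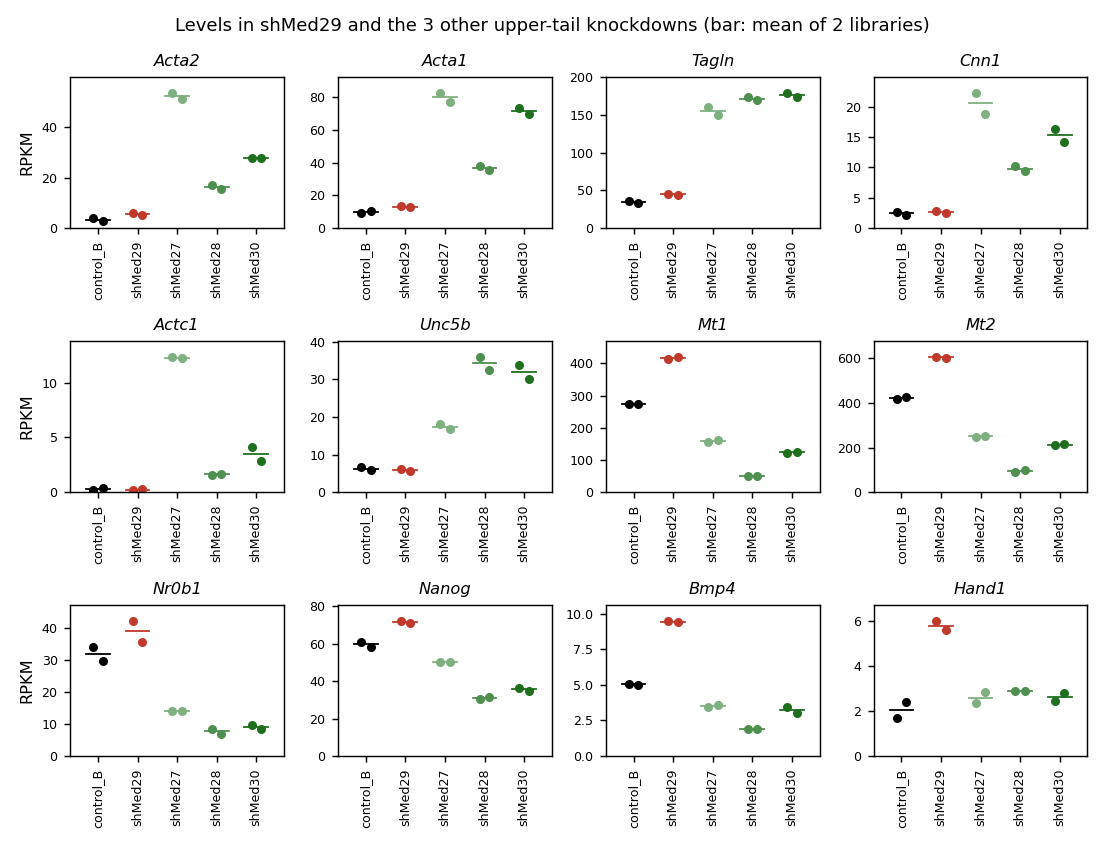
Level (RPKM, y axes from 0, scaled for each gene) in the 2 libraries of control_B, shMed29, shMed27, shMed28 and shMed30 (x axes) for 12 genes; points are libraries and bars are means of 2. In the panels of Acta2, Acta1, Tagln, Cnn1, Actc1 and Unc5b shMed29 lies near control_B and under the 3 neighbours, and in those of Mt1, Mt2, Nr0b1, Nanog, Bmp4 and Hand1 it lies above them.

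Pluripotency genes were largely kept in shMed29. Pou5f1, the gene of OCT4, stood at 404 and 383 RPKM against 436 and 413 in control_B (-0.11 ± 0.05) and Sox2 at 127 and 123 RPKM against 120 and 116 (0.08 ± 0.05). Neither was called. In the general list of 12 genes Nanog (72.0 and 71.2 RPKM against 60.9 and 58.4, log2 change 0.26 ± 0.04) and Dppa4 (0.30 ± 0.05) rose and the RNA-binding Lin28a fell (-0.30 ± 0.03). In the naive list 4 of 16 rose, among them Dppa3 and Tfcp2l1 (0.32 ± 0.05), and 3 fell, which were Tcf15, Gbx2 (-0.34 ± 0.08) and Klf4 (-0.25 ± 0.07). Tcf15 stood at 63.5 and 55.1 RPKM against 115 and 102. The calls of the naive genes Esrrb (0.12) and Tcl1 (0.43) were lost without at least 3 of the 4 libraries in turn, and without each library in turn 2 to 3 members of the naive list were called higher. The call of Klf4 was lost without shMed29 replicate 2 or control_B replicate 1.

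The neighbouring knockdowns held less of these RNAs. In the naive list 15 of 16 genes were higher in shMed29 than in the mean of shMed27, shMed28 and shMed30 and 1 was lower, with a median difference of 0.87, and in the general list 10 of 12 were higher, with a median difference of 0.50. Over all genes tested 29.4% were called higher and 32.2% lower in that comparison. Nr0b1, the nuclear receptor DAX1, stood at 42.2 and 35.7 RPKM in shMed29 and averaged 14.1, 7.69 and 9.01 RPKM in shMed27, shMed28 and shMed30, a difference of 1.86 ± 0.09. Against control_B, at 34.1 and 29.6 RPKM, Nr0b1 was not called (0.28 ± 0.12), and its level in shMed29 was the highest of the 23 Mediator knockdowns. Nanog was higher than the mean of the 3 by 0.90 ± 0.03 and Pou5f1 by 0.53 ± 0.04.

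Genes of the primed state, which ES cells enter as they leave naive pluripotency, moved in both directions: 6 of 11 were called lower and 2 higher, with a median of -0.15. Without each library in turn 3 to 4 were called lower, and none was in the fit of all 100 libraries. The de novo methyltransferases moved apart. Dnmt3a fell from 34.4 and 33.7 to 19.07 and 19.21 RPKM (-0.80 ± 0.04), while Dnmt3b rose from 54.8 and 54.7 to 70.4 and 69.9 RPKM (0.35 ± 0.03) and their cofactor Dnmt3l rose by 0.16 ± 0.03. Each of these 3 genes was higher in shMed29 than in the mean of shMed27, shMed28 and shMed30, by 0.68, 0.74 and 0.60. Otx2, a transcription factor of the epiblast and forebrain, rose from 8.95 and 10.7 to 15.4 and 14.9 RPKM (0.59 ± 0.09). Cdh2 (N-cadherin, 2.14 and 2.27 RPKM against 3.43 and 3.48, log2 change -0.48 ± 0.07), Sox3 (-0.57 ± 0.17) and Zic2 (-0.45 ± 0.11) fell. The call of Sox3 was lost without each library in turn and that of Zic2 without shMed29 replicate 2.

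Neural genes fell, with 4 of 7 measured members called lower and none higher (median change -0.22). They were Sox1, the intermediate filament Nes (4.52 and 4.20 RPKM against 7.74 and 8.06, log2 change -0.73 ± 0.06), Tubb3 (-0.30 ± 0.07, not called without control_B replicate 1) and Stmn2 (-0.22, not called without shMed29 replicate 2). Nes was below the mean of the 22 other knockdowns by -1.01 ± 0.04, and its shMed29 level was the lowest of the 23. Retinoic acid genes fell as well, with 4 of 8 called lower, namely Stra8, the binding protein Crabp2 (1.11 and 1.27 RPKM against 2.59 and 2.68, log2 change -0.73 ± 0.17) and the receptors Rara (-0.33 ± 0.07) and Rarg (-0.25 ± 0.04). Cyp26a1, which degrades retinoic acid, was not called (0.29). In the Hox list 4 of 10 fell and none rose, among them Hoxa5 (0.382 and 0.501 RPKM against 2.02 and 1.18), Hoxa3 and Hoxb1. Hoxb1 was not called without control_B replicate 1, and these 3 genes stood at 2.02 RPKM or less in all 4 libraries.

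Signalling genes moved in separate directions. The Nodal inhibitors Lefty1 (9.44 and 8.95 RPKM against 18.5 and 15.2, log2 change -0.81 ± 0.14) and Lefty2 (3.49 and 2.85 against 7.94 and 5.94, -0.92 ± 0.11) fell, while Nodal itself was not called (-0.13 ± 0.06). Bmp4 rose from 5.10 and 4.98 to 9.49 and 9.42 RPKM (0.79 ± 0.09). Of the Id genes, which BMP signals induce, Id2 rose (0.34 ± 0.08), Id3 fell (-0.47 ± 0.13) and Id1 was not called (-0.32 ± 0.13). Id2 was not called without control_B replicate 1, nor Id3 without that library or shMed29 replicate 2. In the whole Nodal, TGF-β and BMP list 3 of 16 rose and 4 fell. In the Wnt list 5 of 13 fell, among them the nuclear effector Lef1 (-0.36 ± 0.09) and the target Ccnd1 (-0.29 ± 0.04), and the ligand Wnt7b rose (3.81 and 2.93 RPKM against 1.48 and 1.73, log2 change 0.74 ± 0.09). Without each library in turn 2 to 6 members were called lower. Axin2, the most used Wnt target, was not called (-0.02), and Lef1 was not called without shMed29 replicate 1 or control_B replicate 1. In the LIF list Pim1, a STAT3 target, fell from 75.2 and 69.8 to 47.2 and 48.2 RPKM (-0.59 ± 0.05), and Socs3 was not called (-0.07). Myc fell from 24.6 and 25.5 to 16.9 and 17.3 RPKM (-0.52 ± 0.04).

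Of 19 imprinted genes, which are expressed from the maternal or the paternal copy only, 10 were called lower and 4 higher. The neighbours H19 and Igf2 rose together, Igf2 from 17.3 and 17.1 to 25.9 and 25.3 RPKM (0.55 ± 0.09). Cdkn1c and Phlda2, which lie in the adjacent imprinted cluster, fell, Phlda2 from 42.5 and 39.1 to 31.4 and 28.8 RPKM (-0.43 ± 0.08). The maternally expressed non-coding RNAs Meg3 (49.3 and 49.7 RPKM against 67.1 and 65.7, -0.42 ± 0.05), Rian (-0.41 ± 0.04) and Mirg (-0.32) of the Dlk1 cluster also fell. Grb10 (-0.31 ± 0.03) and Plagl1 (-0.33 ± 0.06) fell and Peg3 rose (0.23 ± 0.05). Mirg was not called without shMed29 replicate 1. The calls of Ndn, Impact, Snrpn and Zdbf2 were each lost without at least 3 of the 4 libraries in turn, and without each library in turn 6 to 8 members were called lower.

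Of the stress-response genes that the factor ATF4 is known to act on, 9 of 19 fell and 1 rose, with a median of -0.14. Chac1 (8.58 and 9.19 RPKM against 12.6 and 11.8) fell by 0.42 on the log2 scale and Mthfd2 by 0.19. Between 4 and 8 members were called lower without each library in turn. In the germ-cell list 5 of 14 fell, among them Dazl (-0.47 ± 0.08) and Taf7l (-0.53 ± 0.09), and Tex19.1 rose (0.32 ± 0.05). Without each library in turn 3 to 5 germ-cell genes were called lower. Of the fibroblast list, 3 of 7 measured members fell and none rose, led by Vim (56.1 and 54.5 RPKM against 80.8 and 75.9, log2 change -0.49 ± 0.07) and fibronectin, Fn1 (-0.24 ± 0.03), which ES cells also express. In bulk RNA fewer cells of a type and less RNA per cell cannot be told apart.

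Housekeeping programmes were near the control in median change, with 0.07 in the proteasome list, 0.05 in the G1/S list and 0.03 in the G2/M list. The shares called higher in those lists lay above the 9.13% of all genes. None of 20 ribosomal protein genes and none of 18 ribosome biogenesis genes was called in either direction, with medians of 0.01 and -0.04. In oxidative phosphorylation 2 of 20 genes rose, in the proteasome list 3 of 15 and in the glycolysis and hypoxia list 3 of 19, where 1 fell. Without each library in turn 1 to 2, 0 to 3 and 1 to 4 members of these lists were called higher. Among p53 targets 3 of 22 fell and none rose. In the G1/S list 5 of 17 rose (2 to 5 without each library in turn) and 2 fell, and in the G2/M list 4 of 16 rose and none fell, a count of 0 to 2 without each library in turn and of 1 under upper-quartile scaling. In the same 38 ribosomal and biogenesis genes the neighbours stood lower, with 30 called lower in shMed27 (17.2% of all genes), 35 in shMed28 (27.7%) and 36 in shMed30 (26.1%), and none higher. The direct comparison put 36 of the 38 higher in shMed29 than in the mean of the 3, where 29.4% of all genes were called higher.

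**Figure D5:**
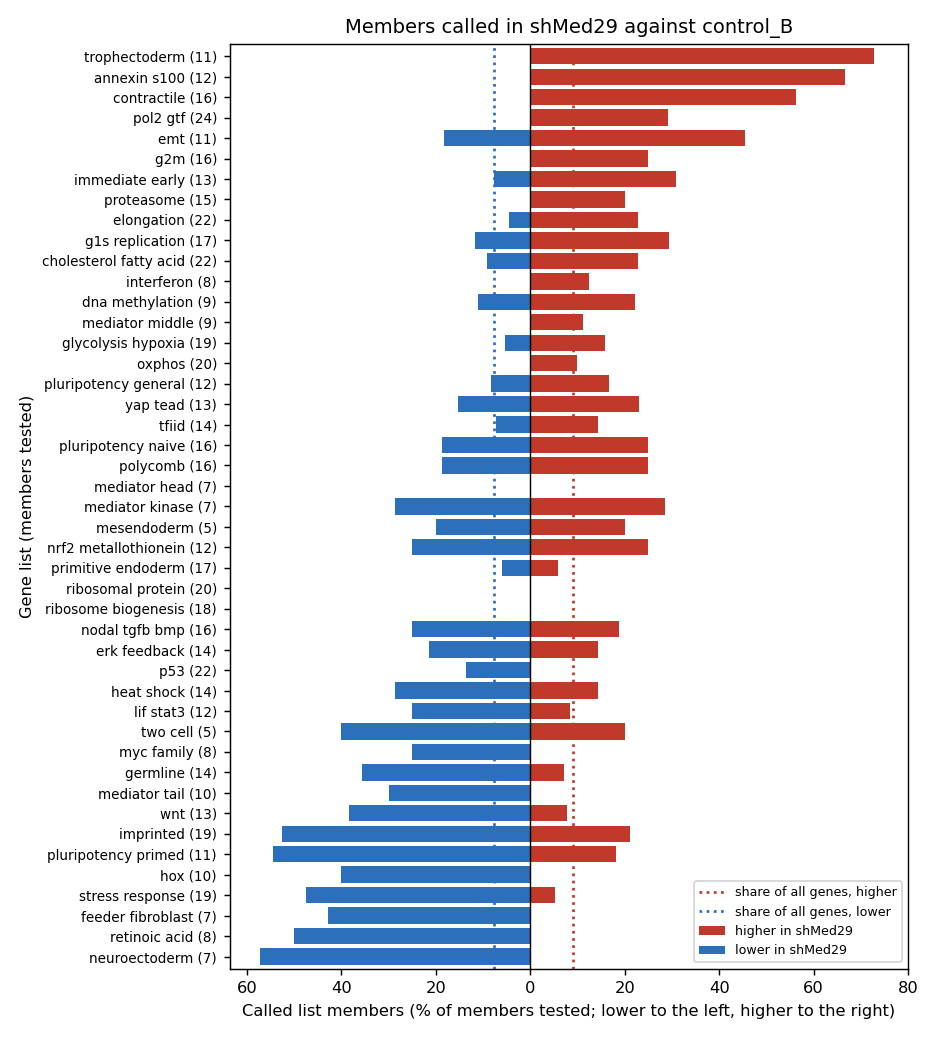
Share of measured list members called in shMed29 against control_B (x axis in percent, higher to the right in red, lower to the left in blue) for the 45 gene lists (y axis, members tested in parentheses); dotted lines mark the shares over all genes, 9.13% higher and 7.57% lower. The trophectoderm, annexin and contractile lists lie farthest to the right and the neural list farthest to the left.

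Counted by called genes, shMed29 differed more from its neighbours than from the control. The mean of the neighbours rests on 6 libraries and control_B on 2, so calls against that mean have smaller standard errors. Against shMed27 alone, with 2 libraries as in control_B, 2551 genes were called higher in shMed29 and 2750 lower, beside 1142 and 947 against control_B. Against the mean of shMed27, shMed28 and shMed30 7710 genes were called, 61.7% of those tested, with 3680 higher and 4030 lower in shMed29, and 170 (1.36%) differed by at least 1 on the log2 scale. Against control_B that mean had 32.6% of genes called higher and 27.2% lower. Among the largest differences downward were those in Acta2 (-2.18), the cardiac actin Actc1 (-2.14), calponin, Cnn1 (-2.11), Acta1 (-2.10), the netrin receptor Unc5b (-2.01), Tagln (-1.88) and Tgfb1i1 (-1.83). Unc5b stood at 6.21 and 5.61 RPKM in shMed29 and at 6.62 and 5.79 in control_B, which overlapped, and it averaged 17.4, 34.3 and 32.0 RPKM in the 3 neighbours. Among the largest differences upward were those in Mt1, the oocyte gene Nlrp4f (1.90), Nr0b1, Mt2, Mymx (1.63), Cbr3 (1.58) and Foxd3 (1.55). None of Nlrp4f, Mymx, Cbr3 and Foxd3 was called against control_B. shMed27 was the nearest of the 3 by count, with 93 genes at a difference of at least 1 (0.744%), beside 289 for shMed28 (2.31%) and 265 for shMed30 (2.12%). Those differences were not tested against each other.

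Some genes set the shMed29 libraries apart from every other library with the same control. Both libraries lay below all 50 others in 80 genes and above all 50 in 66, 1.17% of genes tested, and the control_B libraries lay beyond the rest in 145 genes counted in the same way. Among the 26 groups shMed29 had the 13th fewest such genes. After Med29 itself the widest gap was in Mlec, which encodes the endoplasmic reticulum lectin malectin, a gene picked after its values were seen. Mlec stood at 29.4 and 28.1 RPKM in shMed29, at 47.2 and 47.1 in control_B and at 41.3 RPKM or more in each of the 50 other libraries, a log2 change of -0.69 ± 0.03 against control_B (limma adjusted p = 1.2e-17). Others, also picked after their values were seen, were Mex3d (5.31 and 5.27 RPKM against a lowest value of 6.85 elsewhere), the Polycomb-like protein gene Phf19 (3.42 and 3.29 against a highest value of 2.60) and Aire, the autoimmune regulator (8.93 and 7.41 against a highest value of 6.32).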

How the data were processed

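Polyadenylated RNA was sequenced from stranded libraries, and reads were aligned with TopHat2 to the mm9 build, per the submitters' processing notes. The values used are RPKM per RefSeq transcript, computed and deposited by the authors; the counter, version and strand option are points not given in the sources used here, and no count test was applied because RPKM are not counts. Of the 34995 lines in each file, 140 with repeated identifiers were dropped, 33481 transcripts were named from RefSeq (GRCm38.p6) and 188 from GENCODE, and 1186 stayed unnamed. Each of the 24206 genes took its transcript with the highest mean over all 100 libraries.

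Tests used limma 3.58.1 (trend, R 4.3.3) on log2(RPKM + 1) in 52 libraries of 26 groups that share control_B, fitting the mean of each group (residual degrees of freedom 26, or 30.5 after moderation), for genes at 1 RPKM or more in at least 2 libraries; p-values are two-sided. The libraries with other controls were left out of the fit because in some of them the targeted gene went against the label. The title of control_B excepts only Med15, Med16, Med23, Med24 and Med25 among Mediator subunits. Another control is titled for Med1 and Med14, so these knockdowns were counted with the other controls and not among those that share control_B. Named genes were Mediator subunits and neighbours of Med29, the 15 largest called rises and falls with non-overlapping groups and at least 3 RPKM, the 4 largest called members of each list per direction, list genes called in both comparisons, and the 8 largest differences from the upper tail; symbols of unnamed models were left out, and some genes that the rule names are not reported here. The gene lists and the knockdown itself were chosen with earlier results of these data known. Alternatives were other pseudocounts, filters, scalings, transcripts and sets of libraries, a block for the replicate number, and leaving out each library.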

Additional observations from a re-analysis of the deposited data

Results flagged for a closer look

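In 10 list genes shMed29 and the mean of shMed27, shMed28 and shMed30 were called in opposite directions against the same control libraries, and the direct difference between them was more than 1 on the log2 scale. The sign of that difference is fixed by the opposite calls, so it gives the size only and no independent support. Over all 12505 genes tested, 499 were called in opposite directions with a called direct difference (219 higher and 280 lower in shMed29), 46 of them with a difference of at least 1, and 52 of the 499 were in the gene lists. In 4 genes shMed29 was the higher. Mt1 differed by 2.04 and Mt2 by 1.81, with levels given above. Bmp4 differed by 1.46: it stood at 9.49 and 9.42 RPKM in shMed29, 5.10 and 4.98 in control_B, and averaged 3.51, 1.88 and 3.25 RPKM in shMed27, shMed28 and shMed30. The cationic amino acid transporter Slc7a3 differed by 1.18, with 46.6 and 45.3 RPKM in shMed29, 41.0 and 39.9 in control_B, and averages of 20.4, 21.1 and 17.5.

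In 6 genes shMed29 was the lower. The ligand Wnt3 differed by -1.49, with 0.858 and 0.690 RPKM in shMed29, 1.35 and 1.01 in control_B, and averages of 3.29, 4.51 and 4.20 in the 3 neighbours. Id3 differed by -1.46, with 21.7 and 18.7 RPKM, 30.6 and 26.1 in control_B, and averages of 43.1, 66.1 and 66.0. The imprinted zinc finger gene Plagl1 differed by -1.35, with 1.10 and 0.888 RPKM, 1.46 and 1.55 in control_B, and averages of 3.27, 4.37 and 4.69. All 3 were thus under the control in shMed29 and over it in the neighbours. Nes differed by -1.35 and averaged 13.5, 10.7 and 14.0 RPKM in the neighbours. The ERK-pathway inhibitor Il17rd differed by -1.20, with 5.16 and 5.30 RPKM in shMed29 and 6.45 and 6.43 in control_B, and Cdh2 by -1.01. The calls against control_B were lost for Wnt3 and Id3 without shMed29 replicate 2 or control_B replicate 1, and for Slc7a3 without shMed29 replicate 1 or control_B replicate 2.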

How the results depend on the processing

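The counts of called genes depended on which libraries were fitted, and those with a size threshold also on the pseudocount. With all 100 libraries, 30 genes rose and 15 fell against control_B (3 rose by 1 or more on the log2 scale). In that fit 1738 genes were higher and 2209 lower than the upper-tail mean. Against the other 22 knockdowns 334 were higher and 391 lower (7 lower by 1 or more). Of the 214 named genes called against control_B in the main fit, 205 lost the call there, and the cause was not tested. With the 4 libraries alone 412 rose and 301 fell, and 100 of those 214 named genes lost the call. Leaving out each library in turn gave 609 to 839 rises and 577 to 667 falls against control_B (3 to 10 and 4 to 8 at a log2 change of 1), and 1758 to 3066 genes higher than the other 22; Med29 stayed between -1.27 and -1.19. A group left with 1 library is assumed to vary like the others. At a pseudocount of 0.1 the counts at a log2 change of 1 were 22 rises and 20 falls against control_B, 151 higher and 341 lower than the upper tail, and 19 higher and 51 lower than the other 22; at 4 they were 0, 1, 19, 32, 2 and 2 in that order. With genes at 5 RPKM or more 2684 were lower than the upper tail, and 5 were higher than the other 22 by 1 or more, also 5 under upper-quartile scaling. With the replicate block 1421 genes rose and 1209 fell, and all 2089 calls were kept; same-numbered libraries of shMed29 and control_B correlated at 0.11 (median of 325 pairs of groups 0.0957), so the numbers were not read as pairs. No named change reversed its direction under any alternative run. At 20.94 M reads or more per library, changes under 1 RPKM rest on few reads, and 2 libraries per group limit every estimate.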

Other observations

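Epithelial genes outside the trophectoderm list also moved in shMed29. In the list of epithelial and mesenchymal genes 5 of 11 rose and 2 fell; without each library in turn 3 to 5 rose, and under upper-quartile scaling 3 rose and 3 fell. The tight-junction claudin Cldn7 stood at 15.7 and 13.3 RPKM against 8.99 and 9.81 in control_B (log2 change 0.57 ± 0.10), Cldn6 at 39.2 and 36.9 against 29.9 and 28.3 (0.37 ± 0.05), and the epithelial splicing factor Esrp1 at 10.7 and 10.4 against 7.16 and 7.42 (0.48 ± 0.06). The mesenchymal repressor Zeb2 fell from 0.725 and 0.682 to 0.392 and 0.257 RPKM (-0.37 ± 0.07). Both shMed29 libraries lay beyond both control libraries in these 4 genes, as in 56.4% of all genes tested. Esrp1 was higher in shMed29 than in the mean of shMed27, shMed28 and shMed30 by 0.51 ± 0.05, while Cldn6 was lower by -0.73 ± 0.04.

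Among immediate early genes 4 of 13 rose and 1 fell. The list counts of this section stand against 9.13% of all tested genes called higher and 7.57% called lower, and the smaller counts lie near those shares. Egr1 stood at 13.2 and 13.1 RPKM against 9.35 and 9.98 (0.41 ± 0.08) and the phosphatase gene Dusp1 at 26.5 and 25 against 19.9 and 19.8 (0.36 ± 0.07). In the list of FGF and ERK genes 2 of 14 rose and 3 fell: the receptor Fgfr2 rose (4.60 and 4.96 RPKM against 3.23 and 3.44, 0.41 ± 0.05) and the inhibitor Spred1 fell (26.6 and 26.7 against 34.4 and 34.0, -0.35 ± 0.04), while Dusp6, a common readout of ERK activity, was not called (-0.08). Of 13 YAP and TEAD genes 3 rose, among them Tead4 and Ccn1 (55.6 and 55.8 RPKM against 44.9 and 45.9, 0.29 ± 0.05), and 2 fell; Ccn1 was lower than the upper-tail mean by -1.12 ± 0.04. Of 16 Polycomb genes 4 rose and 3 fell, with Pcgf6 at 0.23 ± 0.05 and Kdm2b at -0.23 ± 0.04. Of 22 lipid-synthesis genes 5 rose, among them Scd1 (0.34 ± 0.07) and Insig1 (0.30 ± 0.06), and 2 fell, Elovl6 (-0.24 ± 0.05) and Fasn (-0.19 ± 0.05, not called without control_B replicate 1). The p53 target Ddit4 stood at 27.1 and 26.0 RPKM against 38.6 and 34.6 (-0.45 ± 0.08), below all 50 other libraries with the same control. Without each library in turn 2 to 3 Polycomb, 3 to 5 lipid-synthesis and 1 to 2 ERK genes were called higher, and 1 to 2 YAP and TEAD genes lower. Endoderm genes hardly moved: 1 of 17 primitive endoderm genes rose and 1 fell, and Gata4, Gata6 and Sox17 were not called.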
